A study of Mus musculus with 96 samples.

Results

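The ATP-binding cassette (Abc) genes and the solute carrier genes of the Slco and Slc22 families encode most of the pumps and carriers that move bile constituents, drugs, lipids and vitamins across liver cell membranes. The genes described here are the rows of the deposited liver tables whose symbol begins with Abca to Abcg, Slco or Slc22a and a number, without Abcb11 and Abcb4, pseudogene symbols and symbols on several rows. They number 88 of the 24066 genes with a symbol on 1 row. The Abc genes make up 48 of them (16 Abca, 8 Abcb, 10 Abcc, 4 Abcd, 1 Abce, 3 Abcf and 6 Abcg), and the others are 25 Slc22 and 15 Slco genes. The rule reads gene symbols and no measured value.

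The study measured liver RNA of C57BL/6J mice in 96 libraries, 3 at each of 4 times of day in each of 8 arms. Zeitgeber time (ZT) counts hours on the light-dark schedule, and livers were collected at ZT0, ZT6, ZT12 and ZT18. Control mothers were kept on 12 h of light and 12 h of darkness, and in shifted mothers the light phase was moved forward by 8 h at intervals of 5 days while they were pregnant. The arms are control and shifted mothers, fetuses of control and of shifted mothers, and male offspring of either kind of mother on low-fat or on high-fat food, which they received for 12 weeks from the age of 4 weeks. The labels used here name no mother for any fetus or offspring, so no pairing was used, and they give no fetal sex, pooling or gestation day. They do not say that replicates are separate animals, so p-values measure the spread between libraries.

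In hepatocytes, uptake carriers of the Slco and Slc22 families sit in the membrane that faces the blood and take up organic anions, organic cations and carnitine. Export pumps in the canalicular membrane, among them Abcc2, Abcg2, Abcb1a and the Abcg5-Abcg8 pair, pass conjugates, drugs and sterols into bile, while Abcc3 and its relatives return conjugates to the blood. Abcd proteins serve the peroxisome and the lysosome, several Abcb proteins the mitochondrion, and the Abce and Abcf proteins lack membrane-spanning parts and are known for roles at the ribosome.

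Values are FPKM (fragments counted on a transcript, relative to its length and to the library's mapped fragments), deposited in 1 table per arm. A difference between arms and a difference between tables in how a gene was quantified cannot be told apart. By the values that 1 fragment gives in the low genes, relative depth ran from 0.771 to 1.44 in 95 libraries. The other library, replicate 1 of high-fat offspring of control mothers at ZT0, was far shallower, with 15512 genes and 48 of the 88 transporter genes at 0, against 6196 to 8992 genes and 13 to 22 transporter genes in the others. Its median correlation with the other libraries of its arm was 0.901. Replicate 2 at ZT12 of the same arm (0.940) and replicate 1 at ZT0 of low-fat offspring of shifted mothers (0.945) were the only others under 0.95. Offspring counts are therefore given with and without the shallow library.

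Many of the genes lie side by side. With gaps under 500 kb, 47 of the 88 fell into 15 clusters in the GENCODE M21 annotation of mm10. The largest is on chromosome 19 from 7673061 to 8628299 and holds 8 Slc22 genes, Slc22a19, Slc22a26 to Slc22a30, Slc22a8 and Slc22a6. Another on chromosome 6, from 141524368 to 142322981, holds 6 Slco1 genes, and 1 on chromosome 11, from 109932190 to 110337716, holds Abca8b, Abca8a, Abca9, Abca6 and Abca5. Close copies in these clusters (Slc22a26 to Slc22a30, the Slco1a genes, Abca8a and Abca8b) and the pair Abcb1a and Abcb1b are uncertain one by one, because reads may have been split between them.

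The sequences before the starts of 5 genes that the results turn on are shown because they belong to genes that stood at opposite ends of the comparison of fetus with mother: Abcb10 and Slc22a4 were far higher in fetal liver, Slco1b2 far lower, and Abcg5 and Abcg8, which share 1 short stretch, far lower as well. They come from RefSeq on GRCm38.p6, whose promoter table held 71 of the 88 genes, and are written 5′ to 3′ on the strand named. Capitals mark every match, on either strand, to 5 motifs: the E-box CACGTG, the D-box TTATGTAA, the motif of the GATA factors written AGATAA, the nuclear receptor half-site AGGTCA and the HNF1 half-site GTTAAT. No match overlapped another.
Abcb10, chr8:123983123-123983372, minus strand: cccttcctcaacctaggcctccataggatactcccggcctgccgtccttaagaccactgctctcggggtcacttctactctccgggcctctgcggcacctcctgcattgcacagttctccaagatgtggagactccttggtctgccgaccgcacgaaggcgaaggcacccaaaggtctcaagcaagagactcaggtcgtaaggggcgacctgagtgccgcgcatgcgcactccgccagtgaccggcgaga
Slc22a4, chr11:54028105-54028354, minus strand: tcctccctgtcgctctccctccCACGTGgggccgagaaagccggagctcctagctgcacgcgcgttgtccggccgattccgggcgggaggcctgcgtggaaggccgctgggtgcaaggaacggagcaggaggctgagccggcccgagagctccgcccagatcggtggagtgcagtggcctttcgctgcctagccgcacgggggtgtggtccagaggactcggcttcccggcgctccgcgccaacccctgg
Slco1b2, chr6:141629268-141629517, plus strand: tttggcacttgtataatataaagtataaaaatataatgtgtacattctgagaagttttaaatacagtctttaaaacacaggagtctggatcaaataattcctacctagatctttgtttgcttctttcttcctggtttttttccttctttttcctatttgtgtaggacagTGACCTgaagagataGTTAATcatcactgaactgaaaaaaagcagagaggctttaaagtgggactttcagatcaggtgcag
Abcg5 to Abcg8, chr17:84683012-84683120, plus strand: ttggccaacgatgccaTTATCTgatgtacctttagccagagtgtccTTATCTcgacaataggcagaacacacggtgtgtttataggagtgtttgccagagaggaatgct

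The last stretch is the whole gap of 109 bases between RefSeq starts of Abcg5, on the minus strand, and Abcg8, on the plus strand. In GENCODE M21 the Abcg8 gene starts at 84676302, inside Abcg5 (84658234 to 84683011), so the gap holds for these RefSeq starts only. Both of its matches read TTATCT on the plus strand, which is AGATAA on the minus strand. AGATAA occurs in 3.98% of all 32817 promoters over 109 bases. Over 250 bases CACGTG, the single match of Slc22a4, occurs in 6.02% of all promoters and in 7 of the 71 transporter promoters. Slco1b2 matched AGGTCA, which occurs in 14.03% of all promoters and in 9 of the 71. It also matched GTTAAT, which occurs in 6.44% and in 4 of the 71. Abcb10 had no match to the 5 motifs. TTATGTAA occurs in 0.82% of all promoters and in 1 of the 71, that of Slc22a20.

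Of the 88 genes, 53 had a mean of at least 1 FPKM in at least 1 arm and 29 in all 8, whereas 27 stayed under 1 FPKM in all 96 libraries. In each arm 38 to 45 transporter genes reached a mean of 1 FPKM. In control mothers they were 51.1% of the members against 40.6% of all genes, and in fetuses of either schedule 43.2% against 47.5%. The 21 genes under a mean of 0.1 FPKM in all arms include Slc22a6 and Slc22a12, known as kidney carriers, and Abca12, known from skin. Slco6c1 and Slco6d1 were listed at 0 in every library, and Slco6b1, a pseudogene by its annotation, was above 0 in 1 library.

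The 10 highest transporter genes of an arm made up 61.3% to 74.7% of the summed FPKM of all 88. Deposited arm means are compared here between genes, since FPKM is per length. Abcd3, a peroxisomal carrier, had an arm mean of 126 FPKM in control mothers and 204 in low-fat offspring of control mothers, and made up 84.1% to 95.9% of the summed Abcd signal in adults. Slco1b2, which takes up bile acids and bilirubin, led the Slco family in every arm, from 12.5 FPKM in fetuses of shifted mothers to 308 in high-fat offspring of shifted mothers. In fetuses the Slc22 family was led by Slc22a23, an orphan carrier, at 13.8 and 13.6 FPKM. The Abcg family was led by Abcg2 in fetuses, at 68.8 and 76.96 FPKM or 81.7% and 82.2% of the family's sum, and by Abcg5 or Abcg2 in adults. Abcb10 led the Abcb family in fetuses, at 63.3 and 79.2 FPKM, and Abcb6, a porphyrin carrier, in every adult arm, at 12.9 to 21.4 FPKM.

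Fetal and maternal liver differed at most of the transporter genes, and mostly with lower fetal values. Changes between arms, here and below, are differences of log2(scaled FPKM + 1), averaged over the 4 times. The fold given for time of day is the antilog of the highest minus the lowest time mean on that same scale. Because of the added 1, both understate the change of low genes, so a fold can be well below the ratio of the FPKM printed beside it. On the control schedule 51 of the 55 genes tested passed an adjusted p of 0.05 in limma, 11 higher and 40 lower in the fetus, where 84.9% of the 12338 genes tested passed, 41.9% higher and 43% lower. On the shifted schedule 49 of 55 passed, 12 higher and 37 lower, against 85.4% of all genes, 42.3% higher and 43.1% lower. Of these, 48 genes passed on both schedules, all in the same direction, 11 higher and 37 lower. The 2 comparisons use separate libraries but a common fit, with shared scaling, filter and spread, so they are not independent. The share of all genes that passed on both schedules was not counted. The median change was -1.0 on the control and -0.80 on the shifted schedule, against -0.01 and -0.00 over all genes tested. The 12 fetal and 12 maternal libraries did not overlap for 41 of the 55 genes on the control schedule and for 39 on the shifted one, against 50.7% and 49.7% of all genes. Some genes, such as Slc22a26 and Abcg4, entered the test only through the stage where they are high. Their direction and lack of overlap follow in part from that filter, here and in the counts by family and role below. With low values kept in the test, 22 of 81 were higher and 46 lower on the control schedule. On the shifted one 22 were higher and 41 lower. Of all 19946 genes, 68.5% and 68.6% passed, 7642 and 7468 of them higher. Without scaling of the libraries the median change of all genes moved to 0.55 and 0.65, and the split became 22 higher and 29 lower on the control and 24 higher and 27 lower on the shifted schedule. Of all 12501 genes tested without scaling, 88.0% and 89.4% passed, and 8372 and 8710 genes were called higher in the fetus.

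**Figure D1:**
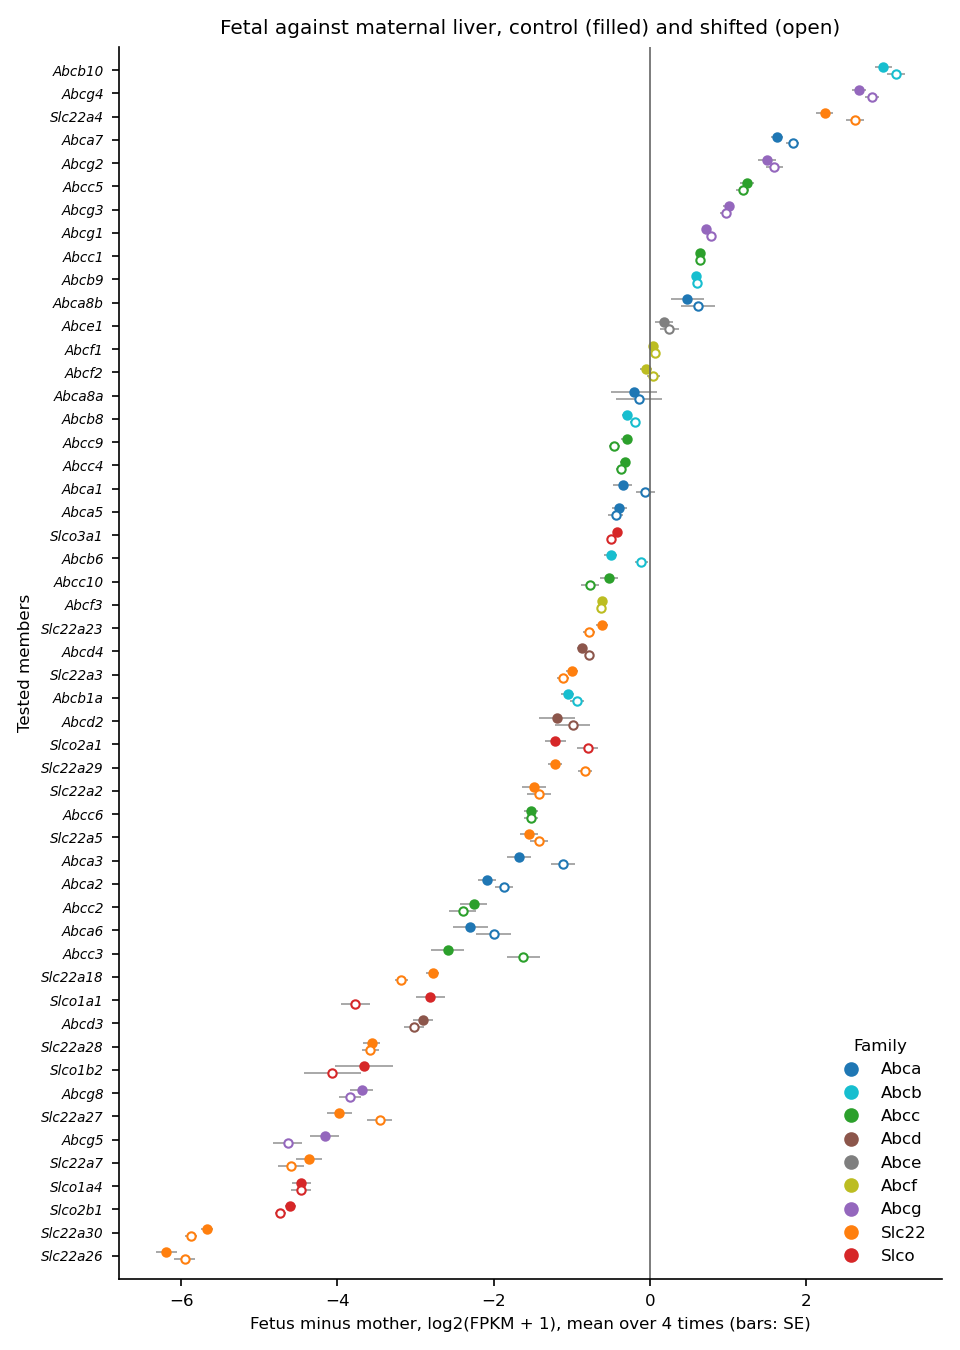
Difference of log2(scaled FPKM + 1) between fetal and maternal liver for 52 of the 55 transporter genes tested, filled points for the control and open points for the shifted schedule, with standard errors as bars and colours for the families. Slc22a26 and Slc22a30 lie farthest to the left, at -6.19 and -5.67 on the control schedule, and Abcb10, Abcg4 and Slc22a4 lie farthest to the right, at 2.99, 2.68 and 2.24 on the control schedule.

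Carriers that take organic anions up into hepatocytes were lower in the fetus in 5 of 5 cases on either schedule, with a median change of -4.36 on the control schedule. Slco1b2 had 57.8 to 246 scaled FPKM with a median of 145 in control mothers, and 2.24 to 33.7 with a median of 10.7 in fetuses of that schedule. Its change was -3.66 (SE 0.37, adjusted p 2.0e-11). Slco2b1, a second organic anion carrier, had 20.2 to 39.8 with a median of 29.2 in control mothers, against 0.116 to 0.530 with a median of 0.209 in fetuses. Neither gene's maternal and fetal libraries overlapped on that schedule. Slc22a7, the organic anion carrier OAT2, had a median of 20.7 in control mothers and was listed at 0 in 8 of the 12 fetal libraries, none of which was above 0.0186. Slco1a4 changed by -4.46 and Slco1a1 by -2.81 on the control schedule, with no overlap between stages for either.

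Carriers of organic cations and carnitine did not all move one way. Slc22a3, a carrier of organic cations, and the carnitine carrier Slc22a5 were lower in the fetus, by -1.0 and -1.54 on the control schedule. Slc22a4, the ergothioneine carrier OCTN1, which lies in the same cluster on chromosome 11 as Slc22a5, was higher in every fetal library. It had 0.457 to 1.16 with a median of 0.945 in control mothers and 4.93 to 14.0 with a median of 7.74 in fetuses, a change of 2.24 (SE 0.11, adjusted p 2.7e-20).

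Large fetal deficits were in the Slc22 cluster on chromosome 19, but not in all its genes. Slc22a8, too low to be tested, went the other way. It was above 0 in every fetal library, with means of 0.379 and 0.739 FPKM scaled among fetuses, in control and shifted arms. In each maternal arm it was listed at 0 in 11 of 12 libraries. Slc22a26 had 48.4 to 97.9 scaled FPKM in control mothers and at most 0.0724 in fetuses, where it was listed at 0 in 6 of 12 libraries. Slc22a30 had 38.7 to 71.2 in control mothers and at most 0.0520 in fetuses. On the control schedule Slc22a26 changed by -6.19, Slc22a30 by -5.67, Slc22a27 by -3.98, Slc22a28 by -3.56 and Slc22a29 by -1.22. The whole Slc22 family had 13 genes tested, 12 lower and 1 higher on both schedules, and the Slco family 6 of 6 lower. Of the 12, Slc22a23 turned positive without scaling, at 0.066 on the control and 0.0095 on the shifted schedule.

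Pumps that face the bile also differed. Abcc2, which exports conjugated bilirubin, had 42.1 to 76.0 scaled FPKM with a median of 54.5 in control mothers and 5.44 to 19.2 with a median of 12.6 in fetuses, a change of -2.25 (SE 0.17, adjusted p 1.9e-14). The multidrug pump Abcb1a changed by -1.05. Abcg2, which exports porphyrins, urate and many drugs, was higher in the fetus, at 38.9 to 94.3 with a median of 47.9 against 12.8 to 22.7 with a median of 17.6, a change of 1.5 (SE 0.11, adjusted p 4.1e-15). None of these 3 genes overlapped between stages on the control schedule.

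Among the sterol exporters, Abcg5 and Abcg8, which work as a pair to pass cholesterol into bile, were near 0 in the fetus. Abcg5 had 11.7 to 54.0 scaled FPKM with a median of 30.6 in control mothers and 0.240 to 1.77 with a median of 0.379 in fetuses, a change of -4.16 (SE 0.19, adjusted p 1.9e-21). Abcg8 changed by -3.69 on the control and -3.84 on the shifted schedule. Abcg1, which loads cholesterol onto lipoproteins, was higher in the fetus by 0.72 and 0.79 on the 2 schedules. Abca1, which passes cholesterol to apolipoprotein A-I, was lower on the control schedule by -0.34 (adjusted p 0.0093), did not pass on the shifted one (-0.06) and was at 0.34 on the control schedule without scaling.

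The Abcc pumps of the membrane that faces the blood (basolateral pumps) split by gene. Abcc3 was lower in the fetus, at 1.82 to 2.70 scaled FPKM against 5.17 to 47.2 in control mothers, a change of -2.59 (SE 0.21), and Abcc6, known from ectopic mineralization, changed by -1.52. Abcc5, a pump for cyclic nucleotides and heme, was higher in the fetus, at 2.62 to 3.90 against 0.458 to 1.12, a change of 1.25 (SE 0.085, adjusted p 4.7e-16). Abcc1, the broad glutathione-conjugate pump, was higher at 0.757 to 1.19 against 0.186 to 0.345. Abcc4 was lower by -0.32 on the control schedule with scaling and at 0.06 without it.

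The organelle transporters held both the largest rise and a set of falls. Abcb10, an inner-membrane protein of mitochondria known for its part in heme synthesis of red cell precursors, had 2.81 to 6.90 scaled FPKM with a median of 5.36 in control mothers and 37.2 to 76.3 with a median of 46.7 in fetuses, a change of 2.99 (SE 0.11, adjusted p 4.5e-24) on the control and 3.15 on the shifted schedule. The mitochondrial genes Abcb6 and Abcb8 were lower on the control schedule, by -0.50 and -0.29, and both turned positive without scaling (0.19 and 0.35). Abcd3 had 104 to 224 scaled FPKM in control mothers and 13.1 to 30.0 in fetuses, a change of -2.90 (SE 0.13). Abcd2, a carrier of very long chain fatty acids into peroxisomes, changed by -1.19, and Abcd4, known for lysosomal vitamin B12, by -0.87.

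Of the soluble Abc proteins, Abcf3 alone passed on the control schedule, at -0.61 with scaling and 0.06 without it, and Abce1, the ribosome recycling factor, passed on the shifted one at 0.25 (adjusted p 0.047). Outside the lists, Abcg4, a sterol transporter best known from brain, was listed at 0 in 6 of 12 control mothers and had 4.18 to 7.2 scaled FPKM in fetuses, a change of 2.68 (SE 0.088). Abca7, linked to lipid handling and phagocytosis, had 0.605 to 1.73 in control mothers and 3.92 to 6.35 in fetuses, a change of 1.63. Neither gene's stages overlapped.

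Markers of blood-forming cells moved with these differences. The 4 erythroid markers measured summed to 582 to 1198 scaled FPKM in fetuses of control mothers against 6.45 to 19.8 in control mothers, and the 6 leukocyte and megakaryocyte markers to 150 to 382 against 2.31 to 5.91. The 6 hepatocyte markers summed to 18020 to 61810 in those fetuses against 136500 to 198900, and none of these markers was at 0 in a whole arm. Their part in the transporter differences was not tested, and in whole liver fewer cells of a type and less RNA per cell cannot be told apart. Among 18 regulators of these transporters (nuclear receptors, liver factors and clock output factors), all 18 passed on both schedules, 17 lower and 1 higher in the fetus. Of 9 other transport genes tested, 9 passed on the control schedule (7 lower) and 8 on the shifted one (7 lower). Of all genes 84.9% passed on the control and 85.4% on the shifted schedule, 43% and 43.1% lower.

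Between control and shifted mothers 4 of 46 transporter genes differed, a share near the background. In shifted mothers 1 was higher and 3 were lower, 8.70% of those tested against 7.91% of the 10376 genes tested, 3.49% higher and 4.42% lower. The median change was -0.06 over the transporter genes and -0.00 over all genes. No transporter gene had arms that did not overlap, against 0.0675% of all genes. Every one of the 4 calls was lost when genes with low values were kept in the limma test (adjusted p 0.0503 to 0.0639), where 4.45% of all genes passed. The count fell to 0 without replicate 1 of control mothers at ZT18, where 492 genes passed in all.

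Abcc3, the pump that returns glucuronides and bile acids to the blood, had 4.00 to 35.7 scaled FPKM with a median of 15.3 in control mothers and 2.53 to 11.5 with a median of 7.57 in shifted mothers. Its change was -1.01 (SE 0.28, adjusted p 0.031), with 12 of 12 shifted libraries below the control mean of their time. The widest spread was among control mothers at ZT0, with 35.7, 4.00 and 8.58. Slco1a1, an uptake carrier known for higher levels in male than female mouse liver, went the other way, from 1.59 to 14.3 with a median of 5.61 in control mothers to 5.91 to 19.7 with a median of 10.9, a change of 0.86 (SE 0.23, adjusted p 0.029). At ZT6 the control mothers had 1.81, 3.26 and 1.59 and the shifted mothers 12.2, 6.95 and 10.95, and these 2 sets of 3 did not overlap. This is 1 of 4 times, from the libraries that gave the call, and adds no support to it.

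Slco2a1, the prostaglandin carrier, had a median of 14.9 scaled FPKM in control and 9.66 in shifted mothers, a change of -0.52 (SE 0.15, adjusted p 0.040), lower in 10 of 12 libraries. Abcb6 had medians of 17.1 and 12.6, a change of -0.32 (SE 0.091, adjusted p 0.036), lower in 11 of 12. Leaving out 1 library at a time, in 24 fits, ended the call of Slco2a1 in 16, of Abcb6 in 13, of Abcc3 in 6 and of Slco1a1 in 4. The 6 endothelial markers summed to 37.0 to 54.6 in control and 27.7 to 56.6 in shifted mothers, and 4 of the 6 were called lower. Their part in these results was not tested. Of the 18 regulators 3 passed, 1 higher and 2 lower, and of the other transport genes none passed.

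**Figure D2:**
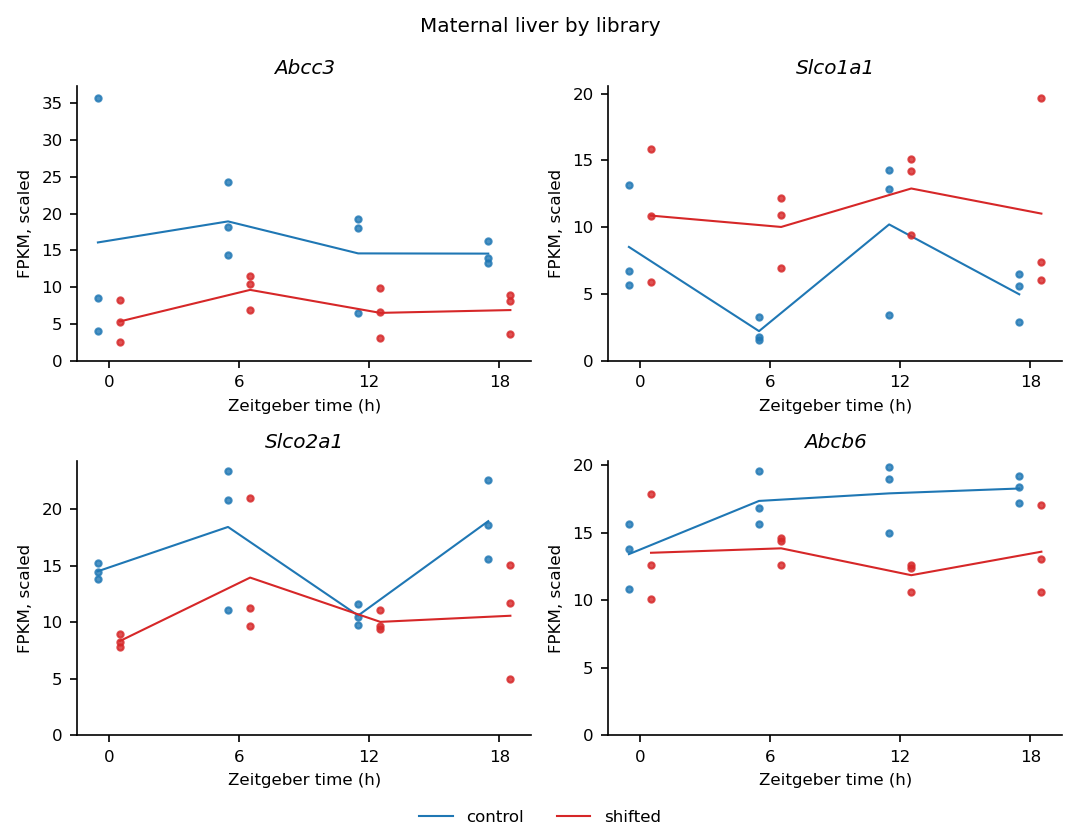
Scaled FPKM of Abcc3, Slco1a1, Slco2a1 and Abcb6 in every maternal library by ZT, with lines joining the means of 3 libraries in control and in shifted mothers. Abcc3 means run from 14.6 to 19.0 in control and from 5.36 to 9.64 in shifted mothers, and the arms overlap for all 4 genes.

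Time of day in control mothers passed for 2 of 46 transporter genes, against 4.25% of 10129 genes. Abcc4, a pump for cyclic nucleotides and bile acids, had 0.500, 0.641 and 0.995 scaled FPKM at ZT0, 1.01, 0.656 and 0.685 at ZT6, 1.31, 1.32 and 1.43 at ZT12, and 1.77, 1.24 and 1.42 at ZT18. The libraries at ZT12 and ZT18 were all above those at ZT0 and ZT6 (adjusted p 0.046, limma). Abcb1a was highest at ZT12, with 2.09, 2.48 and 2.78 against 1.57, 0.879 and 0.837 at ZT0 (adjusted p 0.0497, limma), and the ZT12 libraries lay above those of the other 3 times. These orders of the libraries describe the values that gave the calls and add no support to them. Each call was lost in 10 of 12 fits without 1 library. In shifted mothers 0 of 45 passed in limma (3 at an unadjusted p under 0.05), against 0.67% of all genes (872 of 10002 unadjusted). The test of a different time course on the 2 schedules passed for 0 of 46 (5 unadjusted), against 1.65% (1119 of 10376 unadjusted). No transporter gene was thus shown to differ in its time course between mothers. Among the regulators 4 of 18 passed for time in control mothers (Nr1i2, Dbp, Tef and Hlf) and 2 in shifted mothers (Dbp and Tef).

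In fetuses, no transporter gene passed for the mother's schedule or for time of day. For schedule 0 of 45 passed in limma (5 unadjusted), against 3.78% of 11994 genes (2553 unadjusted), 2.31% higher and 1.47% lower. The median change was -0.02 against -0.01 over all genes. The nearest was Slc22a18, an imprinted orphan carrier, at 8.16 to 11.8 scaled FPKM in fetuses of control mothers and 5.25 to 10.6 in those of shifted mothers (-0.30, SE 0.085, adjusted p 0.059). Its arms overlapped, and no transporter gene had arms that did not, against 0.142% of all genes. With a replicate block 1 gene passed, against 4.08% of all genes. For time 0 of 45 passed in limma (4 unadjusted), as did 0% of all genes, of which 856 had an unadjusted p under 0.05.

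In adult male offspring, the number of transporter genes that varied with time of day differed by arm, and sterol and lipid transporters were among those that passed. It was 5 of 42 in low-fat offspring of control mothers (14.4% of 10105 genes), 16 of 44 in low-fat offspring of shifted mothers (20.5% of 10283), 0 of 43 in high-fat offspring of control mothers (0.767% of 9903, with 11 transporter genes at an unadjusted p under 0.05) and 20 of 44 in high-fat offspring of shifted mothers (30.2% of 10182). At an unadjusted p under 0.05 in high-fat offspring of control mothers, 1312 of all 9903 genes passed as well (limma). Without the shallow library the count in high-fat offspring of control mothers was again 0, against 1.77% of all genes. Without all 3 libraries of low correlation it was 3, against 3.91% of all genes. These counts do not show that arms differ. The test of time by arm passed for 0 of 49 in limma (15 unadjusted), against 0.046% of 10860 genes (2233 unadjusted). Nearest was Abcb1a, at an adjusted p of 0.063 in limma. The time by arm test passed for 1 without the shallow library and for 3 without all 3 libraries of low correlation, against 0.602% and 1.98% of all genes.

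The Abcg5 and Abcg8 pair, whose shared 109 bases are printed above, passed together in both arms of shifted mothers, with the highest mean of each gene at ZT6. In high-fat offspring of shifted mothers Abcg8 had 17.03, 20.98 and 17.2 scaled FPKM at ZT0, 43.6, 30.4 and 35.5 at ZT6, 24.6, 25.9 and 15.8 at ZT12, and 10.8, 9.46 and 9.93 at ZT18. All ZT6 libraries were above all others, and all ZT18 libraries below (3.38-fold from the highest to the lowest time, limma, adjusted p 0.00051). That order describes the values that gave the call and adds no support to it. In low-fat offspring of control mothers it had 19.8, 30.5 and 30.7 at ZT6 and 6.62, 10.5 and 8.34 at ZT18 (2.82-fold, adjusted p 0.012), and it also passed in low-fat offspring of shifted mothers (3.37-fold, adjusted p 0.014). Abcg5 had 64.4, 44.3 and 46.4 at ZT6 and 17.7, 16.0 and 19.5 at ZT18 in high-fat offspring of shifted mothers (2.79-fold, adjusted p 0.0032). In low-fat offspring of shifted mothers its lowest mean was at ZT0 instead (2.93-fold, adjusted p 0.013). It was the nearest to passing in high-fat offspring of control mothers, where its highest mean was at ZT12 (adjusted p 0.094).

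Abcd2, which brings very long chain fatty acids into peroxisomes, was highest at ZT6 on low-fat diet. It had 3.89, 8.14 and 8.32 scaled FPKM at ZT6 and 1.32, 1.41 and 0.632 at ZT18 in offspring of control mothers (3.48-fold, adjusted p 0.021). In low-fat offspring of shifted mothers it had 4.28, 6.63 and 10.6 at ZT6 and 0.577, 0.368 and 0.635 at ZT18 (5.08-fold, adjusted p 0.0021). Abca8b, a lipid transporter of the Abca cluster on chromosome 11, passed in 3 arms. Its highest mean was at ZT0 in low-fat offspring of control mothers (2.42-fold, adjusted p 0.0083), at ZT6 in low-fat offspring of shifted mothers (3.94-fold) and at ZT0 in high-fat offspring of shifted mothers (1.86-fold).

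**Figure D3:**
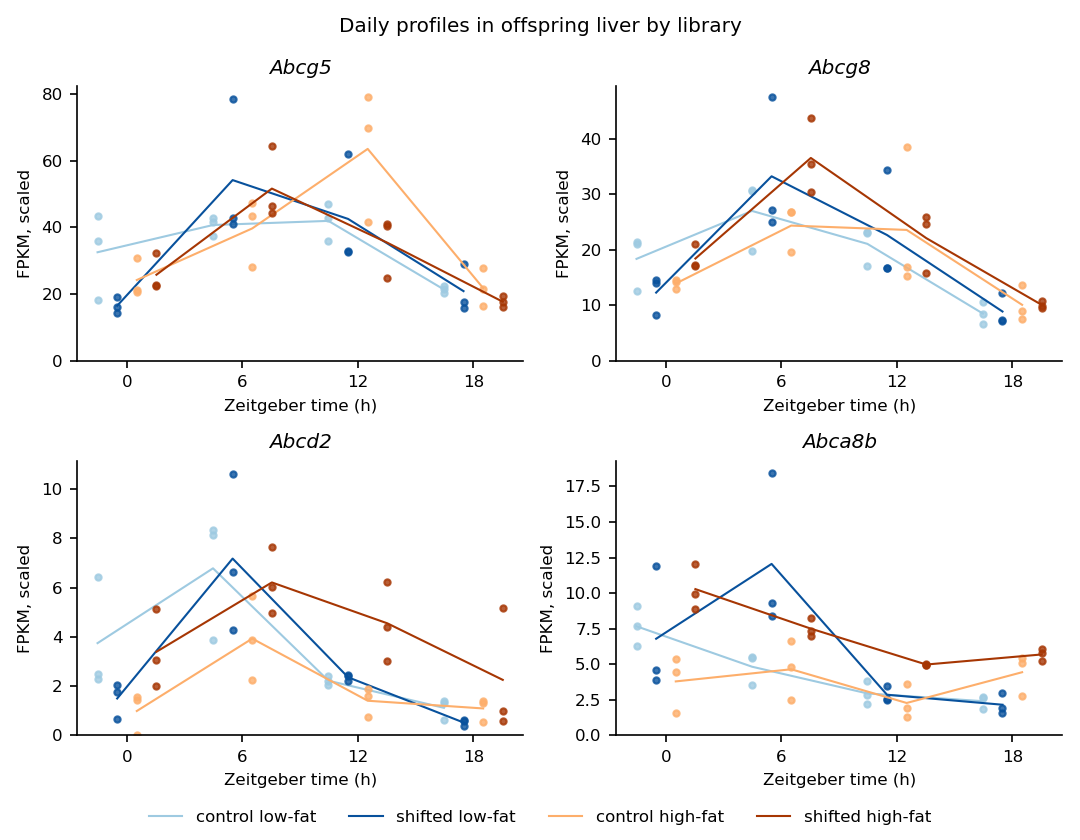
Scaled FPKM of Abcg5, Abcg8, Abcd2 and Abca8b by ZT in every offspring library of the 4 arms, with lines joining means of 3 libraries. Abcg8 means are 27.0, 33.2, 24.3 and 36.5 at ZT6 and 8.50, 8.87, 10.1 and 10.1 at ZT18 in the 4 arms; the gene was not called for time of day in high-fat offspring of control mothers (limma, adjusted p 0.21).

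The uptake carriers Slco1a4 and Slc22a7 passed in low-fat offspring of shifted mothers, and each was highest at the time when the other was lowest. Slco1a4 had 0.787, 2.97 and 4.07 scaled FPKM at ZT0 and 11.2, 14.3 and 14.4 at ZT6 (4.21-fold, adjusted p 0.0073). Slc22a7 had 20.2, 22.2 and 34.6 at ZT0 and 9.08, 4.40 and 6.01 at ZT6 (3.71-fold, adjusted p 0.0066). Neither gene's ZT0 and ZT6 libraries overlapped, but these are the gene's highest and lowest times, so this adds no support to its call. The canalicular pump Abcc2 passed in both arms of shifted mothers with its highest mean at ZT6, at 3.65-fold on low-fat (adjusted p 0.036) and 1.87-fold on high-fat diet (adjusted p 0.022). Abca3, known for surfactant lipid in lung, passed at 3.62-fold in the low-fat arm.

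In low-fat offspring of shifted mothers 11 of the 16 genes had their highest mean at ZT6 and 10 of 16 their lowest at ZT18, against 32.4% and 29.0% of all genes called there. In high-fat offspring of shifted mothers 8 of 20 were highest at ZT6 and 11 of 20 lowest at ZT18, against 22.6% and 25.6%. The 2 arms share 10 genes, 62.5% of the 16 and 50% of the 20. The overlap over all genes called was not counted, so this share has no background. Of the 4 Abce and Abcf genes, Abcf1 was highest at ZT12 in low-fat offspring of control mothers (adjusted p 0.020) and in high-fat offspring of shifted mothers (adjusted p 0.0064), and Abce1 at ZT18 in the former (1.51-fold, adjusted p 0.034). Abcf3 was highest at ZT0 in low-fat offspring of shifted mothers (adjusted p 0.035), and Abcf2 passed in none of the 4 arms (adjusted p from 0.17 up). A difference in phase between genes was not tested. Leaving out 1 library moved the counts to 2 to 10 in low-fat offspring of control mothers, 10 to 19 in low-fat and 12 to 29 in high-fat offspring of shifted mothers. Among the 18 regulators 3, 5, 2 and 10 passed in the 4 arms, in the order given above, and of the other transport genes 2, 2, 0 and 5.

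In offspring of control mothers 8 of 49 transporter genes differed between diets, a share near the background. On high-fat diet 5 were higher and 3 lower, 16.3% of those tested against 14.5% of the 10860 genes, 6.73% higher and 7.82% lower, and the median was 0.01 against -0.03. Abcd3 had 83.4 to 345 scaled FPKM with a median of 180.2 on low-fat and 84.6 to 171 with a median of 139 on high-fat diet (-0.51, SE 0.16, adjusted p 0.027), lower in 12 of 12 libraries than the low-fat mean of the same time. Abcd2 (-0.60) and Abca1 (-0.42, adjusted p 0.014) were lower as well. Slc22a18 was higher, from 44.6 to 65.6 with a median of 53.7 to 55.3 to 121 with a median of 66.7 (0.41, SE 0.085, adjusted p 0.0016). Abcc10 (0.46), Abcd4 (0.44), Abcc6 (0.40) and Slc22a4 (0.34) made up the rest. No transporter gene had diets that did not overlap, against 0.11% of all genes.

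Without the shallow library 6 passed, 4 higher and 2 lower, against 16.7% of all genes. Abcc10, Abcd2 and Slc22a4 were no longer called (limma, adjusted p 0.070, 0.069 and 0.091). Only 3 passed without replicate 2 at ZT12 of the high-fat arm, where 1018 genes passed in all. Without scaling, which moved the median of all genes to -0.13, the split was 2 higher and 8 lower, against 21.6% of all genes. Of those 2359 genes, 345 were higher. With trends by GC content and length removed it was 7 higher and 1 lower, against 14.2% of all genes (1485, with 782 higher). Of the marker lists, 3 of 6 endothelial, 2 of 5 stellate and 1 of 5 bile duct markers passed, against 14.5% of all genes. The endothelial sums were 23.7 to 47.9 on low-fat and 35.4 to 58.8 on high-fat diet, and their part was not tested. Of the other transport genes 2 of 8 passed, 1 in each direction, and of the regulators 3 of 18, all higher (Nr1h3, Dbp and Tef).

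In offspring of shifted mothers the high-fat diet went with higher levels of 19 transporter genes and lower levels of none. The background was 23.2% of all genes, 11.5% higher and 11.7% lower, and the median was 0.23 against 0.01. Abcc3 had 5.72 to 24.5 scaled FPKM with a median of 10.6 on low-fat and 13.7 to 46.7 with a median of 28.0 on high-fat diet (1.18, SE 0.20, adjusted p 4.9e-05), higher in 11 of 12 libraries. Slc22a2, the organic cation carrier OCT2 best known from kidney, had 0.146 to 1.12 and 0.706 to 1.84 (0.59, SE 0.087, adjusted p 9.1e-06). Slco1b2 had 21.1 to 405 with a median of 178 and 191 to 363 with a median of 302 (0.78, adjusted p 0.020). The diets overlapped for each of these, and no transporter gene had diets that did not, against 0.212% of all genes.

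By role, the calls included 2 of the 3 canalicular pumps of drugs and conjugates Abcb1a, Abcc2 and Abcg2 (Abcc2 at 0.72 and Abcg2 at 0.45), 2 of 3 basolateral pumps (Abcc3 and Abcc6), the cation and carnitine carriers Slc22a3 (0.38) and Slc22a5 (0.67), and the peroxisomal carrier Abcd2 (0.55). In the cluster on chromosome 19, Slc22a27 (0.86), Slc22a29 (0.81) and Slc22a28 (0.55) were called. None of the 4 sterol exporters was. Without the shallow library 21 passed, 20 higher and 1 lower, against 31.5% of all genes. With trends by GC content and length removed 18 passed, 16 higher and 2 lower, against 19.3% of all genes (2017, with 949 higher). Beside these, 3 of 6 hepatocyte markers were lower (Alb, Apoa1 and Ttr), with sums of 39990 to 85210 on low-fat and 31400 to 50310 on high-fat diet, and 2 of 5 bile duct and 2 of 6 endothelial markers were lower, and their part was not tested. Of the regulators 6 of 18 passed, all higher, among them the nuclear receptors Ppara, Rxra and Nr1i3. In this comparison 11.5% of all genes were called higher and 11.7% lower.

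The mother's schedule on low-fat diet showed no transporter gene past the test. In limma 0 of 49 passed (4 unadjusted), against 0.00921% of all genes (806 of 10860 unadjusted), and the median was 0.03 against -0.01. Among the 4 were Abcg2 (-0.38), Slc22a5 (-0.39) and Abca3 (0.31), with adjusted p from 0.38 up. Abcg2 had 22.9 to 52.2 scaled FPKM with a median of 36.5 in offspring of control mothers and 14.5 to 42.3 with a median of 27.5 in those of shifted mothers, and was lower in 12 of 12 libraries than the control mean of their time. The arms overlapped. The count was also 0 without the shallow library, against 0.0278% of all genes.

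On high-fat diet 25 of 49 transporter genes differed between offspring of shifted and of control mothers, 22 higher and 3 lower. This is close to the background for the total, 48.1% of all genes, while the background was 26.3% for higher and 21.9% for lower. The median was 0.24 against 0.01 over all genes. One gene, Abca3, had arms that did not overlap, against 3.12% of all genes. Without the shallow library 25 passed, 21 higher and 4 lower, against 54.3% of all genes. Abcd4 and Slc22a3 were no longer called (limma, adjusted p 0.060 and 0.061). Without scaling the median of all genes moved to 0.21 and the split was 35 higher and 1 lower, against 53.8% of all genes. Of those 5879 genes, 4972 were higher. With trends by GC content and length removed it was 19 higher and 8 lower, against 43.2% of all genes (4516, with 2148 higher).

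Of the 22 rises, the 2 largest were in the Abca family of lipid transporters. Abca3 had 1.41 to 3.29 scaled FPKM with a median of 2.25 in high-fat offspring of control mothers and 4.15 to 9.21 with a median of 7.61 in those of shifted mothers (1.27, SE 0.13, adjusted p 1.1e-08). Abca6 had 6.79 to 19.3 with a median of 10.2 and 12.8 to 36.5 with a median of 29.7 (1.23, SE 0.17, adjusted p 6.6e-07). Abca8b and Abca8a, of the same cluster on chromosome 11, changed by 0.81 and 0.62, and Abca1, the 1 sterol exporter of 4 that was called, by 0.63 (adjusted p 3.4e-05). Of the 7 Abca genes tested 5 were called, all higher.

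**Figure D4:**
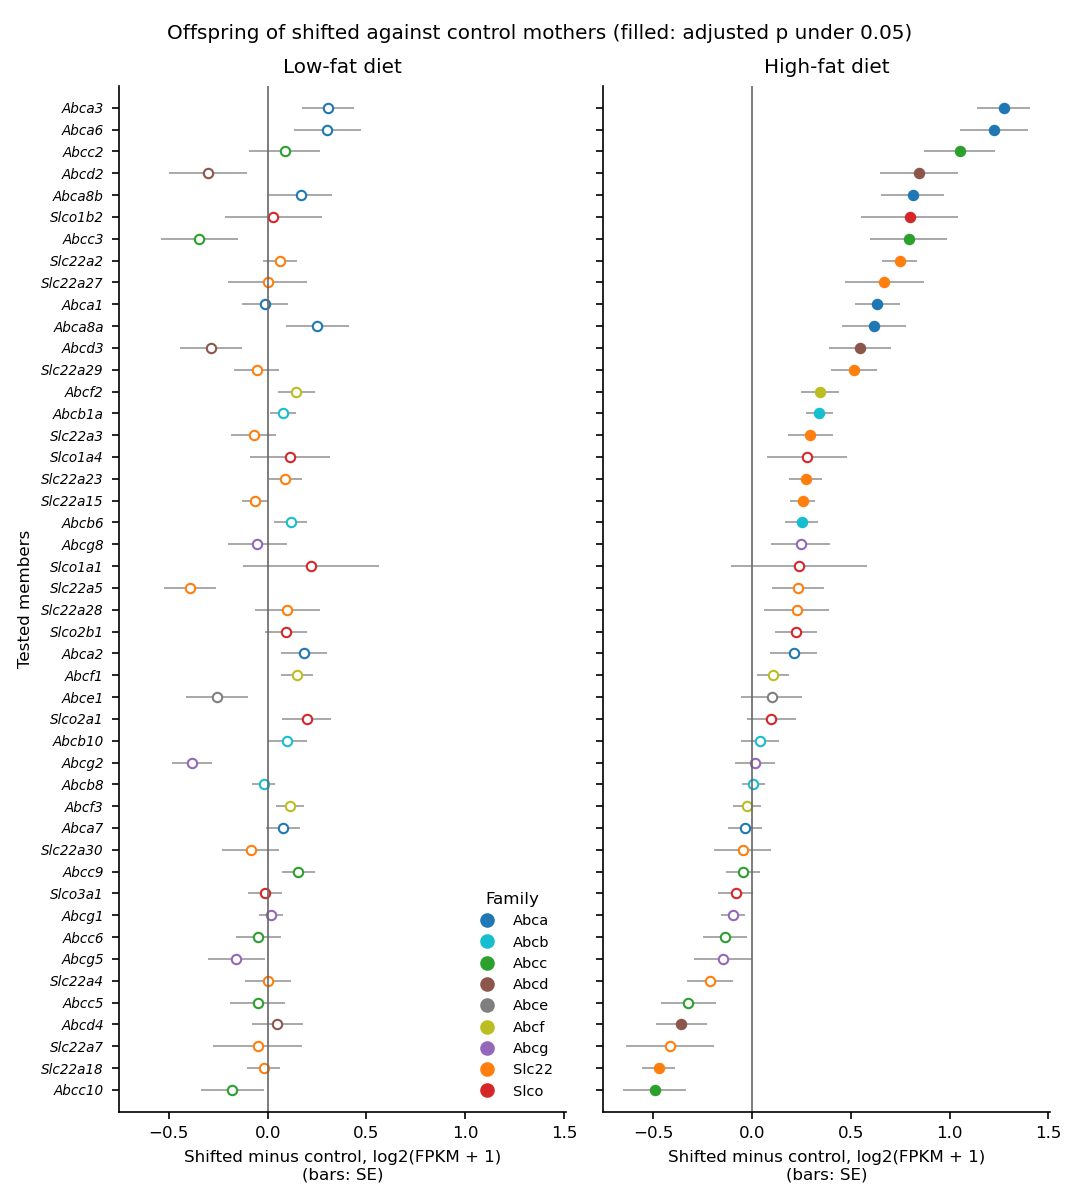
Difference of log2(scaled FPKM + 1) between offspring of shifted and of control mothers for 46 of the 49 transporter genes tested, on low-fat and on high-fat diet, with standard errors as bars and filled points for an adjusted p under 0.05. No point is filled on low-fat diet, and 22 are filled on high-fat diet, from -0.49 for Abcc10 to 1.27 for Abca3.

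Of the Abcd genes, the peroxisomal carriers Abcd2 and Abcd3 were called higher. Abcd2 had 0 to 5.66 scaled FPKM with a median of 1.49 in offspring of control mothers and 0.586 to 7.64 with a median of 4.69 (0.84, SE 0.20), and its 0 was in the shallow library. Abcd3 had medians of 139 and 194 (0.54, adjusted p 0.0047). Abcd4, known for the lysosome and not the peroxisome, was lower (-0.36). The arms overlapped for all 3.

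Of the pumps and carriers at the hepatocyte membrane, Abcc2 rose most. It had 17.6 to 47.8 scaled FPKM with a median of 20.9 in high-fat offspring of control mothers and 25.6 to 76.3 with a median of 58.7 in those of shifted mothers (1.05, SE 0.18, adjusted p 1.3e-05). Slco1b2 had 119 to 212 with a median of 166 and 191 to 363 with a median of 302 (0.80, SE 0.25, adjusted p 0.0077), and it was the only called gene of the 5 organic anion uptake carriers. Abcc3 had medians of 15.1 and 28.0 (0.79, adjusted p 0.0011). All 12 shifted libraries of Abcc2 and Slco1b2 and 11 of 12 of Abcc3 were above the control mean of their time, and the arms overlapped for all 3. These library counts describe the values that gave the calls and add no support to them.

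Slc22a2 (0.75, listed at 0 in the shallow library) and Slc22a3 (0.29) are neighbours on chromosome 17 and were both called higher. The cluster genes Slc22a27 (0.67) and Slc22a29 (0.52) were higher too. Slc22a18 was lower, from 55.3 to 121 with a median of 66.7 to 41.4 to 61.0 with a median of 51.2 (-0.47, SE 0.085, adjusted p 2.7e-05), and Abcc10 was lower by -0.49 (adjusted p 0.010). The mitochondrial porphyrin carrier Abcb6 (0.25) was higher, and Abcf2 (0.34) was the only soluble Abc gene called.

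Cell type markers were called in this comparison as well, where 48.1% of all genes were called. Of 6 hepatocyte markers 4 were called, 2 higher and 2 lower, with sums of 40590 to 66690 in offspring of control and 31400 to 50310 in those of shifted mothers. Called lower were 2 of 5 bile duct and 3 of 6 endothelial markers, 3 of 6 Kupffer markers (1 higher, 2 lower) and 3 of 5 stellate markers (2 higher, 1 lower) were called, and of the erythroid markers Alas2 was higher, with sums of 31.6 to 60.7 and 41.8 to 66.7. No marker of these lists was at 0 in a whole arm, and their part in the transporter differences was not tested. Of the regulators 6 of 18 were called, 5 higher and 1 lower, and of the other transport genes 3 of 8, 2 higher and 1 lower. Both are below that share of all genes.

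The difference between diets itself depended on the mother's schedule for 17 of 49 transporter genes, by the test of the difference of the 2 diet differences. In 16 the diet difference was more positive in offspring of shifted mothers and in 1 more negative, against 24.2% of all genes, 13.9% more positive and 10.3% more negative, with a median of 0.18 against 0.02. Without the shallow library it was 18, 17 more positive and 1 more negative, against 31% of all genes. With trends by GC content and length removed it was 12, against 16.4% of all genes. The genes no longer called included Abca8b, Abcb1a, Abcg2, Slc22a15, Slc22a18 and Slc22a29. Without scaling, which moved the median of all genes to 0.17, it was 22, all more positive, against 28.95% of all genes. Of those 3165 genes, 2774 were more positive. Among the markers 2 of 6 hepatocyte, 1 of 5 bile duct, 3 of 6 endothelial and 3 of 5 stellate genes passed the same test, and their part was not tested.

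Abcd2 and Abcd3 changed sign between schedules. Abcd2 was lower on high-fat diet in offspring of control mothers (-0.60) and higher in those of shifted mothers (0.55), a difference of 1.15 (SE 0.28, limma, adjusted p 0.0038). Its fall in offspring of control mothers did not pass without the shallow library (-0.49, limma, adjusted p 0.069), whereas the difference did (1.05, adjusted p 0.0042). Abcd3 was at -0.51 and 0.32, a difference of 0.83 (SE 0.22, adjusted p 0.0071), of which the second diet difference did not pass by itself. Abca1, at -0.42 and 0.23, had a difference of 0.65 (SE 0.16, adjusted p 0.0048).

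Abcc3 was at 0.04 in offspring of control and 1.18 in those of shifted mothers, a difference of 1.14 (SE 0.28, adjusted p 0.0038). Abca3 (-0.35 and 0.62, difference 0.97) and Abcc2 (-0.24 and 0.72, difference 0.97) came next, and Slc22a2 at -0.09 and 0.59 had the smallest adjusted p (0.00051). Abcg2 (0.40) and Abcb1a (0.26), which like Abcc2 pump drugs or conjugates into bile, were among the 17, and the sterol pair Abcg5 (0.01) and Abcg8 (0.30) was not. Slc22a18 was the 1 gene with a negative difference (-0.45, adjusted p 0.0069), at 0.41 in offspring of control and -0.04 in those of shifted mothers. Slco1b2 (0.77, adjusted p 0.10) did not pass. These diet differences share the arms used in the schedule comparisons above and are not independent of them.

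**Figure D5:**
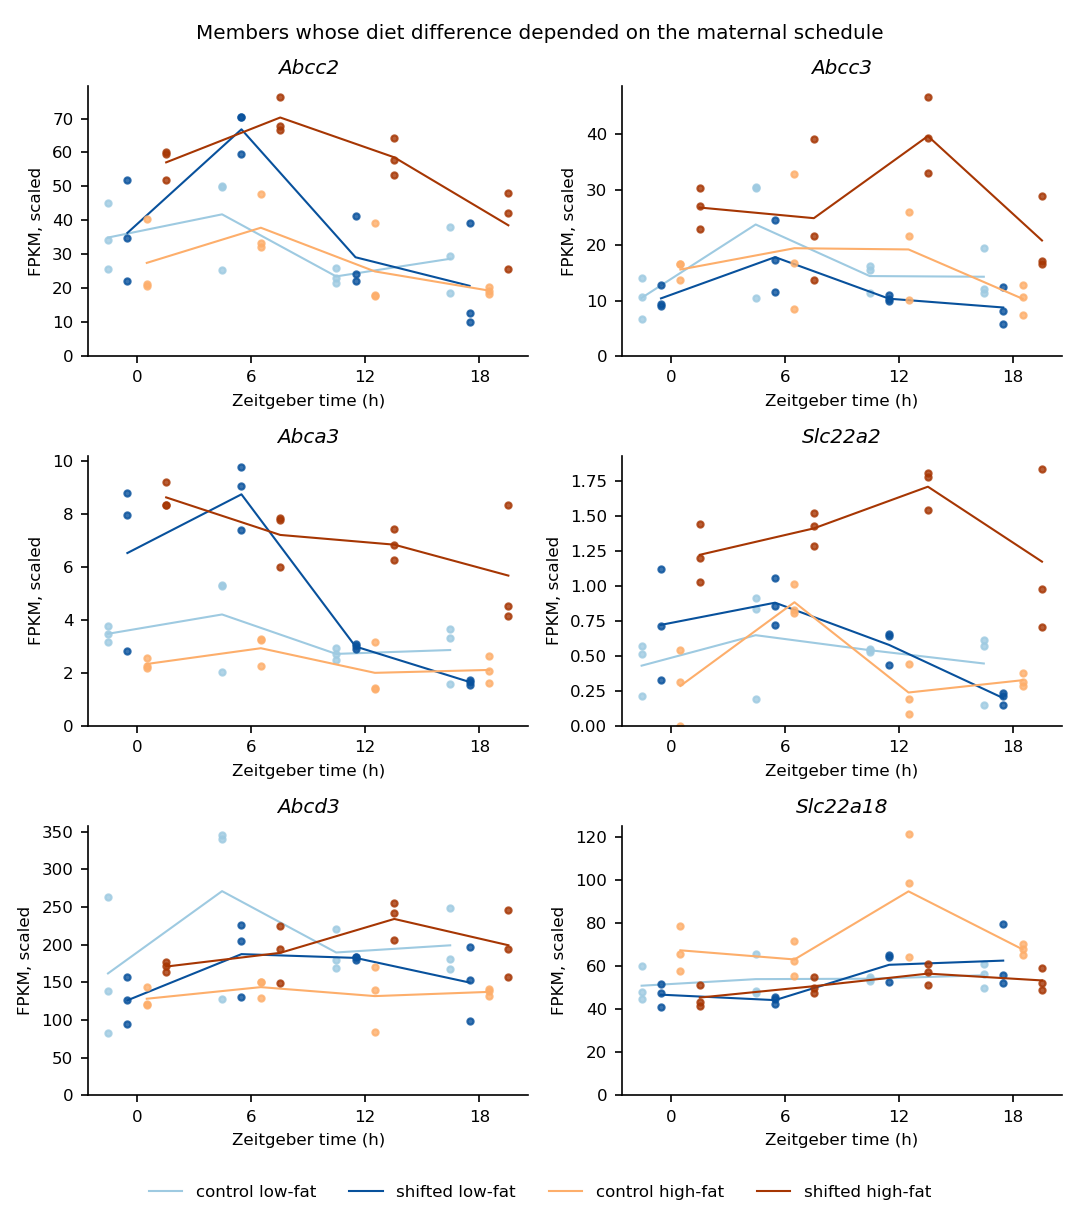
Scaled FPKM of Abcc2, Abcc3, Abca3, Slc22a2, Abcd3 and Slc22a18 by ZT in every library of the 4 offspring arms, with points set sideways by arm and lines joining means of 3 libraries. High-fat offspring of shifted mothers have the highest median of the 4 arms for all but Slc22a18, where high-fat offspring of control mothers have it, at 66.7.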

How the data were processed

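Liver RNA was prepared with TRIzol and made into stranded polyA libraries (TruSeq), per the labels' protocols. The authors deposited FPKM values in 8 tables, 1 per arm with 12 libraries each; the submitters' processing notes name TopHat2 2.1.1, Cufflinks 2.2.1 and mm10, and for the annotation and any filter the sources used here name nothing. Each table has 24883 rows, of which 817 rows with a repeated symbol were left out. The values are not counts, and close copies may share reads.

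For each fit (mothers, fetuses, mothers with fetuses, offspring), FPKM were divided by a median-of-ratios factor per library, and these are the scaled FPKM of the text. Time of day within an arm of mothers or offspring was tested in a separate fit of that arm's 12 libraries. Such a fit had its own factors, filter and spread. The adjusted p and folds for time of day there come from these fits, so their scaling differs from that of the FPKM printed beside them. Arm means compared between genes are FPKM as deposited. Genes of at least 1 FPKM in at least 3 libraries were tested with limma 3.58.1 (R 4.3.3) on log2(scaled FPKM + 1), with a mean for each arm and time. Arm differences are averages over the 4 times, a difference of differences tests schedule by diet, and time of day is tested with 3 degrees of freedom (9 for time by arm). A gene was called at a Benjamini-Hochberg adjusted p under 0.05 over all genes tested. A library was counted on the side of a change by comparison with the mean of the other arm at its own time. Such counts describe the values tested and add no support to a call. The fits were tested on simulated data. Tables and figures were made with Python 3.11.15, numpy 2.4.6, pandas 2.3.3 and matplotlib 3.10.9.

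Genes were named by rule: every gene of the role lists, the genes called in each comparison (beyond 12, the 6 largest rises and 6 largest falls, and for time of day the 8 with the largest fold), and the highest gene of each family. Single values of 3 of the genes are not reported here, though counts and medians include them. The members and lists were chosen with earlier results of these data known. As alternatives, low values were kept in the test, the pseudocount was set to 0.1 or the scaling was left out or taken from the upper quartile; others were a replicate block, removal of GC content and length trends, libraries of correlation under 0.95 left out, and each library left out in turn. The mean correlation of same-numbered libraries' deviations was -0.026 within mothers, 0.015 within fetuses and 0.0050 within offspring. Single pairs ran from -0.735 to 0.789 in fetuses. Mothers were not compared with fetuses in this way, so pairing by replicate number is not excluded.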

Additional observations from a re-analysis of the deposited data

Results flagged for a closer look

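For 17 transporter genes the difference between high-fat and low-fat diet in offspring of shifted mothers differed from that in offspring of control mothers, by limma's test of the difference of the 2 differences, where 24.2% of all genes passed. Values of 15 of them follow, in log2(scaled FPKM + 1), shifted minus control. Among lipid and sterol transporters they were 0.968 for Abca3, 0.924 for Abca6, 0.650 for Abca1 and 0.644 for Abca8b. The peroxisomal genes had 1.15 (Abcd2) and 0.833 (Abcd3). The pumps of conjugates and drugs had 1.14 (Abcc3), 0.966 (Abcc2), 0.396 (Abcg2) and 0.264 (Abcb1a). The Slc22 carriers had 0.685 (Slc22a2), 0.627 (Slc22a5), 0.573 (Slc22a29), 0.321 (Slc22a15) and -0.452 (Slc22a18). Abcd2, Abcb1a, Slc22a2 and Slc22a15 are listed at 0 in the shallow library, which belongs to high-fat offspring of control mothers.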

How the results depend on the processing

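Counts are of transporter genes called, with the share of all genes called in brackets. Time of day in control mothers gave 2 (4.25%), against 0 with a pseudocount of 0.1 (3.97%) and 0 without scaling (4.89%). It gave 1 with upper quartile scaling (4.28%) and 0 with the replicate block (2.41%). The replicate block also gave 1 for schedule in fetuses (4.08%), which gave 0 without it (3.78%). Without a filter on low values the counts were 0 for schedule in mothers (4.45%) and 1 for time by schedule in mothers (1.1%). Time by arm in offspring then gave 2 (0.173%), and 1 without scaling (0.238%). Without the 3 libraries of low correlation the counts were 3 for time by arm (1.98%) and 3 for time in high-fat offspring of control mothers (3.91%). Diet in offspring of control mothers then gave 4 (17.2%), and 5 with a pseudocount of 0.1 (12.1%). The cause was not tested.

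With 1 library left out at a time, the counts ran from 0 to 3 for time in control mothers (0 without ZT0 replicate 2, ZT6 replicate 2 or 3, ZT12 replicate 1 or 2 or any ZT18 replicate, 1 without ZT0 replicate 3 or ZT12 replicate 3), from 2 to 10 in low-fat offspring of control mothers (10 without ZT0 replicate 1, 8 without ZT6 replicate 1, 2 without ZT6 replicate 2 or 3, 3 without ZT12 replicate 1 or 2 or ZT18 replicate 3), from 10 to 19 in low-fat offspring of shifted mothers (10 without replicate 3 at ZT6) and from 12 to 29 in high-fat offspring of shifted mothers (12 without ZT0 replicate 1, 13 without ZT0 replicate 3 or ZT6 replicate 2). They ran from 0 to 6 for time by arm (above 0 in 12 of 48 fits, 6 without replicate 3 and 4 without replicate 2 at ZT0 of low-fat offspring of shifted mothers, 4 without replicate 1 at ZT12 of high-fat offspring of control mothers). Schedule in mothers ran from 0 to 5 (0 without control ZT18 replicate 1, 1 without control ZT0 replicate 1 or 3 or ZT12 replicate 2 or 3, 2 without control ZT6 replicate 2 or ZT18 replicate 3 or without shifted ZT0 replicate 1 or 3, ZT6 replicate 1, any ZT12 replicate or ZT18 replicate 3). Schedule in fetuses ran from 0 to 1 (1 without control ZT0 replicate 3, ZT12 replicate 2 or ZT18 replicate 1 or shifted ZT0 replicate 3 or ZT12 replicate 2), and counts ran from 3 to 12 for diet in offspring of control mothers (12 without replicate 1 at ZT0 of low-fat offspring of shifted mothers, 3 without high-fat ZT12 replicate 2, 4 without low-fat ZT6 replicate 2 or 3 or ZT12 replicate 3, 5 without low-fat ZT12 replicate 2 or ZT18 replicate 3 or high-fat ZT18 replicate 3). The counts for fetus against mother ran from 50 to 51 and from 48 to 49, for diet in offspring of shifted mothers from 15 to 22, for schedule on high-fat diet from 23 to 27 and for schedule by diet from 14 to 19. Over all genes, calls ran from 182 to 711 for time in control mothers and from 0 to 418 for time by arm. For time in the offspring arms, in the order above, they ran from 446 to 2022, 751 to 2887 and 1588 to 4678. For schedule they ran from 492 to 1163 in mothers and from 197 to 820 in fetuses, and for diet in offspring of control mothers from 1018 to 2646.

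Without scaling, fetus minus mother changed sign on the control schedule for Abca1 (0.34), Abcb6 (0.19), Abcb8 (0.35), Abcc4 (0.058), Abcc9 (0.20), Abcf3 (0.056) and Slc22a23 (0.066). On the shifted schedule it changed sign for Abcb8 (0.55), Abcc4 (0.077), Abcc9 (0.14), Abcf3 (0.14) and Slc22a23 (0.0095). Under every alternative and every omission, 40 of 51 and 39 of 49 calls of fetus against mother, 18 of 25 of schedule on high-fat diet, 13 of 19 and 2 of 8 of diet and 10 of 17 of schedule by diet held, and 0 of 4 of schedule in mothers. For time of day 0 of 2 held in control mothers, 2 of 5 in low-fat offspring of control mothers, and 10 of 16 and 10 of 20 in low-fat and high-fat offspring of shifted mothers. Relative depth and the shallow library limit what can be seen of genes under 1 FPKM.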
